A study of Mus musculus with 12 samples.

Results

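A set of 10 genes of the endothelial surface and its junctions were examined in the embryonic heart ventricle: the vascular endothelial growth factor (VEGF) receptors Kdr, Flt1 and Flt4, the angiopoietin receptor Tek and its relative Tie1, the adhesion molecules Cdh5 and Pecam1, the clotting carrier Vwf, the sialomucin Emcn and the secreted factor Egfl7. They were chosen by name from the 18194 genes that have a probe set with a single gene symbol, and all 10 were measured, by 18 of the 45101 probe sets. Each gene is read from its probe set with the highest mean over the 12 arrays, and the other sets stand beside it. The arrays carried RNA of left or right ventricles (LV and RV) dissected at 14.5 days post coitum from embryos homozygous for the Nos3tm1unc allele, strain B6.129P2-Nos3tm1unc/J (KO), and from wild-type CD1 embryos (WT), with 3 arrays in each of the 4 groups and a pool of 15 to 30 embryos per array. Nos3 encodes endothelial nitric oxide synthase and is itself expressed in endothelium. The allele acts in every cell of the embryo, and KO and WT came from different strains, so allele and strain cannot be told apart in any comparison of KO with WT. Values are log2 expression, and a difference of 1 is a doubling.

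Endothelial cells line the vessels of the heart wall, and endocardial cells, a related population, line its chambers. VEGF acts through Kdr, the main signalling receptor, while Flt1 binds VEGF tightly and limits its supply, and Flt4 takes up Vegfc and Vegfd and marks lymphatic as well as growing blood vessels. Tek responds to angiopoietins and works together with Tie1 to keep vessels stable. Cdh5 (VE-cadherin) forms the adherens junction between endothelial cells and is tied to the actin skeleton by catenins, and Pecam1 lies at the same contacts and on platelets and leukocytes. Vwf is stored in granules of endothelial cells and megakaryocytes, Emcn coats the surface of capillaries, veins and endocardium, and Egfl7 is secreted by endothelial cells during tube formation and carries a microRNA, miR-126, in an intron. In whole ventricles a lower value can come from fewer cells of a type or from less RNA per cell, and these cannot be told apart.

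Promoter windows of GRCm38.p6, from 250 bases before to 50 after a RefSeq start, were at hand for 7 of the 10 genes (9 windows, with 3 for Egfl7). They are shown for 3 receptor genes that were higher in KO left ventricles, for Emcn, which did not pass the test, and for the first 2 starts of Egfl7, which was lower. Capitals mark GGAA, the core of sites for ETS factors, on either strand (as TTCC on the other one).
Kdr, chr5:75978406-75978705, minus strand: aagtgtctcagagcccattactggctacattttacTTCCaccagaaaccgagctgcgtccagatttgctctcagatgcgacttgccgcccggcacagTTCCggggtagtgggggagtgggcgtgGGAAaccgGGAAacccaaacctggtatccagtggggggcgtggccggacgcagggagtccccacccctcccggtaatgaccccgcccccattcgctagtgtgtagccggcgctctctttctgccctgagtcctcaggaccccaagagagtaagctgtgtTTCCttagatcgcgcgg
Flt1, chr5:147725962-147726261, minus strand: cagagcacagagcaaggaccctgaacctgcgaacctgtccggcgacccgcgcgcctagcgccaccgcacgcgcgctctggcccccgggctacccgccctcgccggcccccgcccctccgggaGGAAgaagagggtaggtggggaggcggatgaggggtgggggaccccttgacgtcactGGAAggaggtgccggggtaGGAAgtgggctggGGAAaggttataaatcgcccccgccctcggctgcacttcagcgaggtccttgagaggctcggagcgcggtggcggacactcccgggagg
Tie1, chr4:118489800-118490099, minus strand: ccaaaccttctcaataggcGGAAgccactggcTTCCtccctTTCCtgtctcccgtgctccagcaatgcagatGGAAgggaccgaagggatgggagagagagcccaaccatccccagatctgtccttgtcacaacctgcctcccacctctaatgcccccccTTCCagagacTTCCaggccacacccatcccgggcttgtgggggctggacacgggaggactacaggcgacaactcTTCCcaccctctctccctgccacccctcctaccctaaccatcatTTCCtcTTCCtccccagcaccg
Emcn, chr3:137340828-137341127, plus strand: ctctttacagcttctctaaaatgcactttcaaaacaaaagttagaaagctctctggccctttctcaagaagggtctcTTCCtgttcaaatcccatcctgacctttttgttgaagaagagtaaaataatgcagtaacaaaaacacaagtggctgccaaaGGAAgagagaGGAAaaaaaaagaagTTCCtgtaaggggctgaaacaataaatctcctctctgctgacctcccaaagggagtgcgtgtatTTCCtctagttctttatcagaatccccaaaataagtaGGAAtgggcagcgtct
Egfl7, first start, chr2:26580833-26581132, plus strand: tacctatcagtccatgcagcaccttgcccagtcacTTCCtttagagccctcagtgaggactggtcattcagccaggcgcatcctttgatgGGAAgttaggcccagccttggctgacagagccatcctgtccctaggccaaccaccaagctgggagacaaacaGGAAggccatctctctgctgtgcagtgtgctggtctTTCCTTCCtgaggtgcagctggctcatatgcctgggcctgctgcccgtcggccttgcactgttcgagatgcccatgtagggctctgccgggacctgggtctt
Egfl7, second start, chr2:26583615-26583914, plus strand: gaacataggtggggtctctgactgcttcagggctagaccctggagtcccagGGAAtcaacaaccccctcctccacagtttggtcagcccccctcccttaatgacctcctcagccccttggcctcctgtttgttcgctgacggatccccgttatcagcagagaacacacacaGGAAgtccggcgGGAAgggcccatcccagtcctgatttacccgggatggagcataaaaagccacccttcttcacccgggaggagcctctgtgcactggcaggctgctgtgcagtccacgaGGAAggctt
All 9 windows held GGAA, with 1 to 9 matches, as did 96.0% of 32841 mouse windows of 300 bases, whose median was 3. Tie1 had 9 matches, Emcn 6, Kdr and the first Egfl7 window 5 each, and Flt1 and the second Egfl7 window 4 each. The windows not shown lay below that median, with 2 matches each for Tek and Flt4 and 1 for the third Egfl7 window. The longer ACAGGAA, which contains GGAA, was found on either strand in 4 of the 9 windows: 2 of Egfl7, and those of Emcn and Tie1, against 8.67% of all windows. CCGGAA, which also contains GGAA, was found only in the Kdr window (14.9% of all windows), and TATAAA only in that of Flt1 (13.6%). The windows of genes that were higher and of genes that were not thus held the same core, and a match describes letters, not a bound site.

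Nos3 itself read 7.95, 8.02 and 7.86 in KO left ventricles, against 8.36, 8.39 and 8.30 in WT left ventricles, a difference of -0.41 (limma, adjusted p = 0.0376) whose call was lost without any 1 of these 6 arrays (-0.45 to -0.37), with the arrays centred on their medians (-0.31, adjusted p = 0.0989) and with every probe set tested on its own (-0.41, adjusted p = 0.0565). In right ventricles it read 8.23, 8.04 and 7.77 in KO, against 8.72, 8.94 and 8.37 in WT (-0.66, limma adjusted p = 0.00983). Where its probe set lies relative to the disrupted part of the gene was not examined, so its signal in KO does not check the labels. The 10 genes of ventricular myocardium averaged 9.66 (Irx4) to 15.03 (Myl2) over the arrays, and the 6 of atrial myocardium 5.93 (Bmp10) to 14.35 (Myl4), so the atrial genes did not set the label apart. Liver transcripts varied by array, with a summed level of 8.60 to 9.92 in KO and 10.11 to 12.24 in WT left ventricles, and 9.82 to 11.14 in KO and 10.56 to 13.28 in WT right ventricles, the highest on WT_RV replicate 1. Their part in the results was not tested. Every one of the 10 endothelial genes lay above the median of all values, 5.67. Technical measures of the arrays moved with the groups. The 24 probe sets for poly-A transcripts added before labelling averaged 7.35 to 8.47 on the 6 KO arrays, 8.89 to 8.94 on the 3 WT left ventricles, 8.05 and 8.13 on WT_RV replicates 1 and 2 and 8.96 on WT_RV replicate 3. The 18 hybridisation control sets averaged 11.56 to 11.70 on WT and 11.33 to 11.41 on KO left ventricles. On right ventricles they overlapped, at 11.34 to 11.58 in WT and 11.34 to 11.42 in KO. Array medians were 5.69 to 5.74 on WT and 5.57 to 5.66 on KO left ventricles. In the left ventricle the poly-A control level, these other measures and the genotype cannot be told apart. WT_RV replicate 3, the only right ventricle with a high control level, was lower than the mean of WT_RV replicates 1 and 2 in 8 of the 10 genes, by 0.28 (Emcn) to 0.70 (Vwf) in size, while 48.0% of all genes were lower on it.

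**Figure D1:**
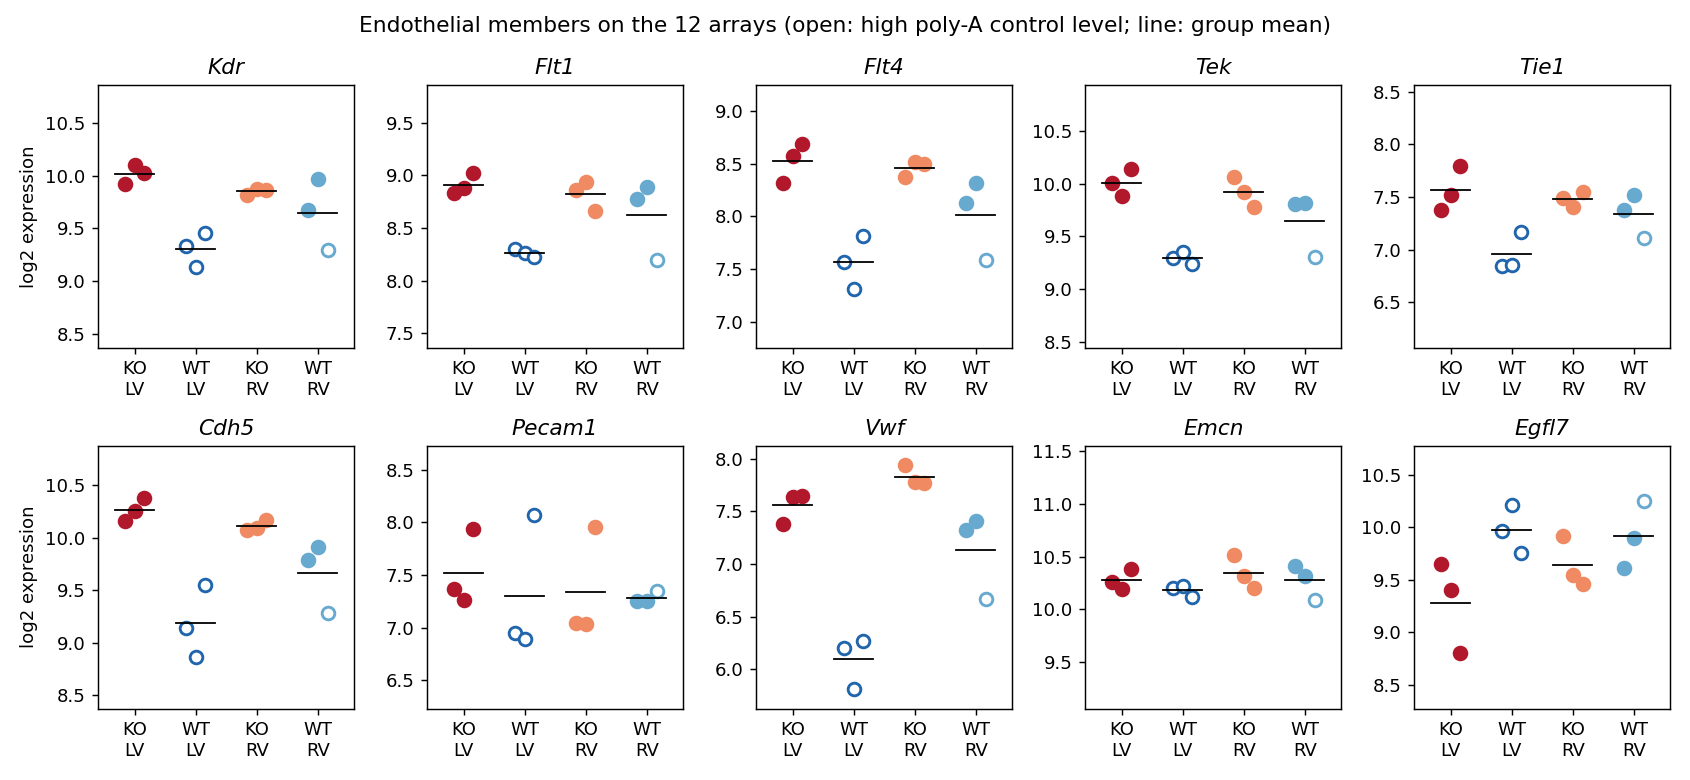
Log2 expression (vertical axis, each panel 2.5 units high) of the 10 genes on every array, with KO and WT left ventricles and KO and WT right ventricles from left to right. Points are arrays, open points have a high poly-A control level and lines are group means; KO left ventricles lie above WT left ventricles in 7 panels and below them for Egfl7.

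In the left ventricle 7 of the 10 genes rose in KO and 1, Egfl7, fell, while Pecam1 and Emcn did not pass the test (limma, Benjamini-Hochberg adjusted p under 0.05 over 18194 genes). Of all genes tested, 30.9% passed, 18.6% higher and 12.3% lower. The 8 called genes were also those whose groups did not overlap, which held for 23.8% of all genes upward and 20.6% downward. The median difference of the 10 genes was 0.68, against -0.01 for all genes.

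The VEGF receptors were higher in KO left ventricles. Kdr read 9.92, 10.10 and 10.03 in KO left ventricles, against 9.33, 9.13 and 9.46 in WT left ventricles. Its means were 10.02 ± 0.09 in KO and 9.31 ± 0.17 in WT (SD, n = 3 each), a difference of 0.71 or 1.64-fold (SE 0.14, limma adjusted p = 0.00213), and the KO values lay above all WT values. Flt1, the decoy-like receptor, read 8.83, 8.88 and 9.02 in KO against 8.30, 8.26 and 8.22 in WT, a difference of 0.65 (SE 0.15, limma adjusted p = 0.00475). Flt4 read 8.32, 8.57 and 8.69 in KO against 7.57, 7.31 and 7.81 in WT, a difference of 0.96 or 1.95-fold (SE 0.17, limma adjusted p = 0.00114). For each receptor the lowest KO array stood above the highest WT array by more than either group's SD.

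Tek and Tie1, the pair of angiopoietin system receptors, moved by similar amounts. Tek read 10.01, 9.88 and 10.14 in KO left ventricles and 9.29, 9.35 and 9.24 in WT left ventricles, a difference of 0.72 (SE 0.13, limma adjusted p = 0.00141). Tie1 read 7.38, 7.52 and 7.79 in KO and 6.84, 6.85 and 7.17 in WT, a difference of 0.61 (SE 0.13, limma adjusted p = 0.00375). Neither gene's groups overlapped, and Tie1 had the smaller gap, with 7.38 as its lowest KO value against 7.17 as its highest WT value.

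Of the junction molecules, Cdh5 rose and Pecam1 was not called. Cdh5 read 10.16, 10.25 and 10.38 in KO left ventricles, against 9.14, 8.87 and 9.55 in WT left ventricles. The means were 10.26 ± 0.11 in KO and 9.19 ± 0.34 in WT (SD, n = 3 each), a difference of 1.08 or 2.11-fold (SE 0.17, limma adjusted p = 0.000554), larger than the spread in either group. Pecam1 read 7.37, 7.26 and 7.94 in KO and 6.95, 6.89 and 8.07 in WT, a difference of 0.22 with a 95% interval of -0.42 to 0.86 (limma adjusted p = 0.618). Replicate 3 was the high array of Pecam1 in both groups, so its only probe set had a spread that leaves a change of up to 0.86 possible.

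Vwf had the largest difference of the 10 genes. It read 7.38, 7.64 and 7.65 in KO left ventricles, against 6.20, 5.81 and 6.27 in WT left ventricles. The means were 7.56 ± 0.15 in KO and 6.09 ± 0.25 in WT (SD, n = 3 each), a difference of 1.46 or 2.76-fold (SE 0.17, limma adjusted p = 7.79e-05). Its difference stood at percentile 99.7 of those of all genes. Relative to the mean of the other 9 genes on the same array, Vwf in the left ventricle lay at -1.60 ± 0.12 in KO and -2.58 ± 0.17 in WT (SD, n = 3 each), so its change was larger than theirs on average.

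Emcn and Egfl7 departed from the others. Emcn read 10.26, 10.19 and 10.38 in KO left ventricles and 10.20, 10.22 and 10.12 in WT left ventricles, a difference of 0.10 with a 95% interval of -0.13 to 0.32 (limma adjusted p = 0.529). That interval lies below the point estimates of all 7 genes that rose. Egfl7 read 9.65, 9.40 and 8.80 in KO and 9.96, 10.21 and 9.75 in WT, a difference of -0.69 or 0.620-fold (SE 0.21, limma adjusted p = 0.0237). Its groups did not overlap, and KO_LV replicate 3 was the lowest of the 12 arrays. The call was lost without KO_LV replicate 3 (-0.45, limma adjusted p = 0.111), WT_LV replicate 1 (-0.70, 0.0537) or WT_LV replicate 2 (-0.57, 0.0919), and with the mean of its 4 probe sets (-0.62, 0.0688).

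**Figure D2:**
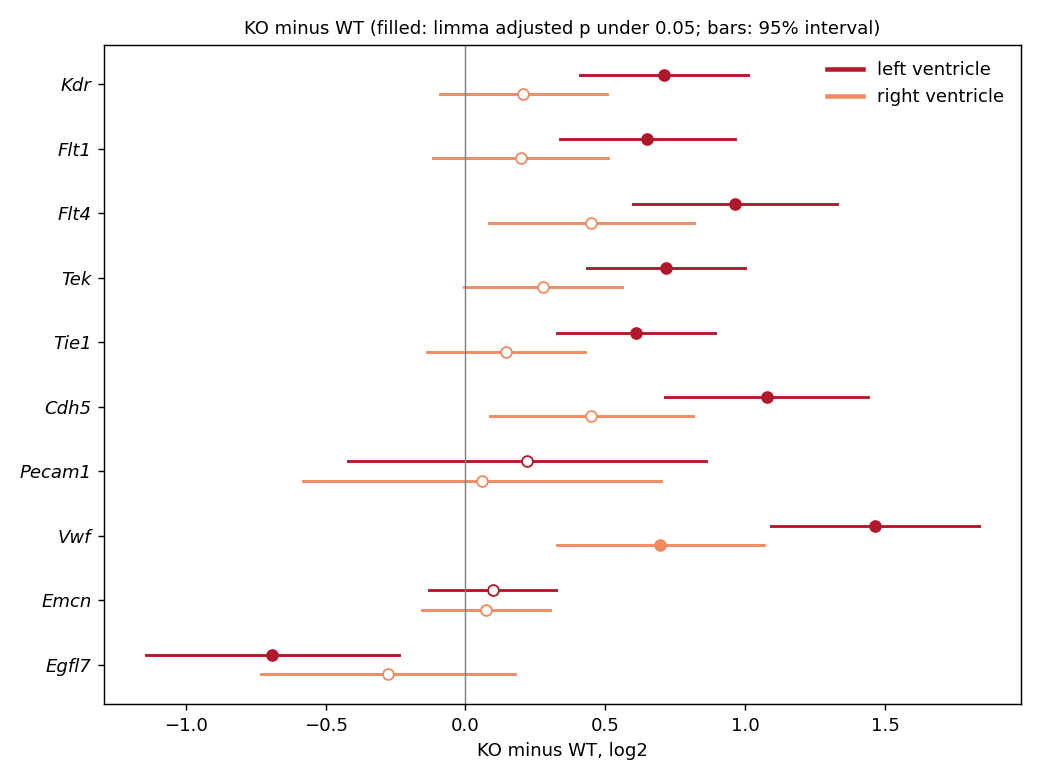
KO minus WT difference on the log2 scale (horizontal axis) of each gene in the left and the right ventricle, with 95% intervals from limma. Filled points passed an adjusted p of 0.05: 8 in the left ventricle and Vwf alone in the right ventricle.

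Adding the poly-A control level as a term to the model left 6 of the 10 genes called in the left ventricle, with 14.1% of all genes called. Vwf stood at 1.22 with the term (limma adjusted p = 0.00195), Cdh5 at 0.95 (0.0124), Flt4 at 0.84 (0.0217), Kdr at 0.57 (0.0397), Tek at 0.47 (0.0265) and Tie1 at 0.57 (0.0408). Flt1 at 0.40 (0.0911) and Egfl7 at -0.76 (0.0801) were no longer called. Since KO and WT left ventricles share no range of the control level, the term rests on its spread within groups. The plot against the control level shows the 4 high-control arrays apart from the other 8 for Vwf and Cdh5. Over the 12 arrays Nos3 did not follow that split, since low-control arrays held both its highest values (WT right ventricles) and its lowest (KO). Within WT it did, at 8.30 to 8.39 on the 4 high-control arrays and 8.72 and 8.94 on the 2 low-control ones. With the control term its difference in left ventricles was -0.70 (limma adjusted p = 0.00186).

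**Figure D3:**
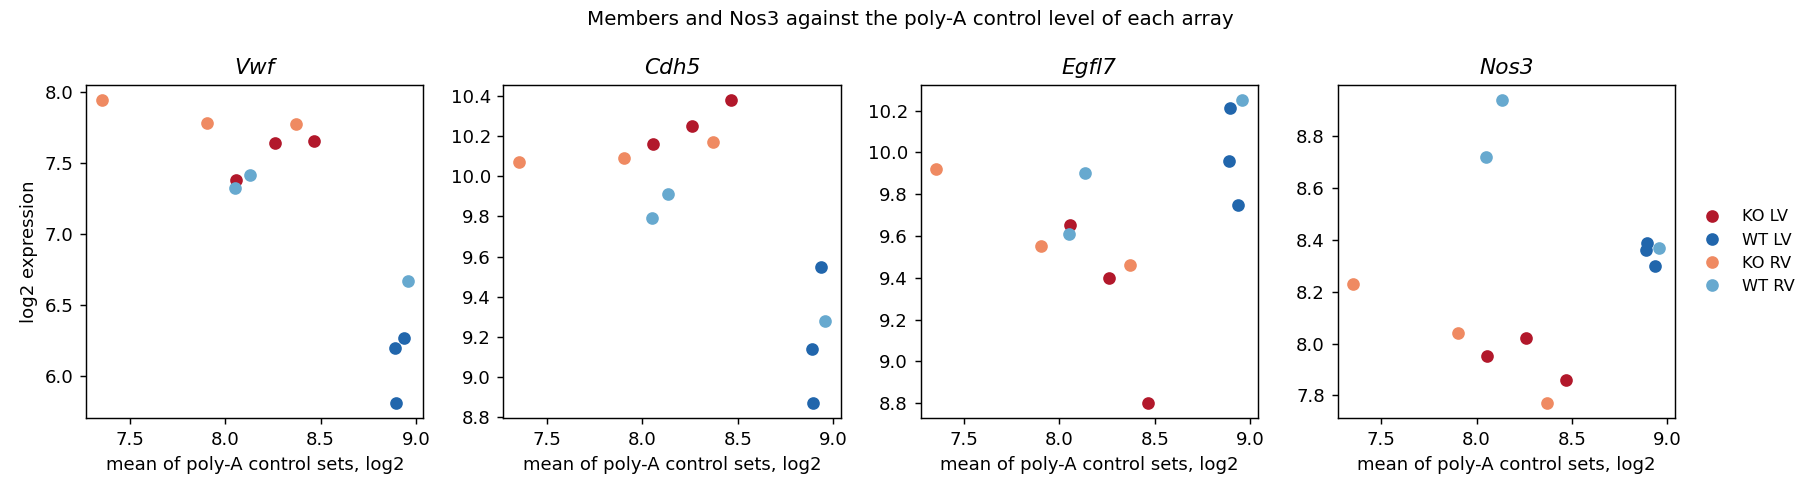
Log2 expression (vertical axes) of Vwf, Cdh5, Egfl7 and Nos3 against the mean of the 24 poly-A control probe sets on each array (horizontal axes, log2), coloured by group. The WT left ventricles and WT_RV replicate 3 stand at 8.89 to 8.96 on the horizontal axis, with the lowest values of Vwf and Cdh5.

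Several probe sets were present for 4 of the genes. In the left ventricle 2 further sets of Flt1 read 1.12 (mean level 7.78) and 1.01 (mean level 6.78), larger than the 0.65 of the brightest set, and a dim further set with a mean of 5.13 read 0.20. The second sets of Flt4 (mean 5.99) and Cdh5 (mean 4.83) read 0.06 and 0.08, where the sets used read 0.96 and 1.08. Both are dim, near or below the median of all values. Both are annotated with a RefSeq transcript, however. The annotation names no sequence for the Flt4 set used, and one outside RefSeq for the Cdh5 set used. For Egfl7 all 4 sets were lower in KO, at -0.69, -0.76, -0.69 and -0.33. Adjusted over all probe sets, the limma p was 0.0399 for the set used and 0.0313, 0.0951 and 0.435 for the others. By the array's naming, the Egfl7 set used (suffix _x_at) holds probes that may also match other transcripts, whereas the next brightest (suffix _a_at), which also passed, holds probes shared by transcripts of 1 gene.

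**Figure D4:**
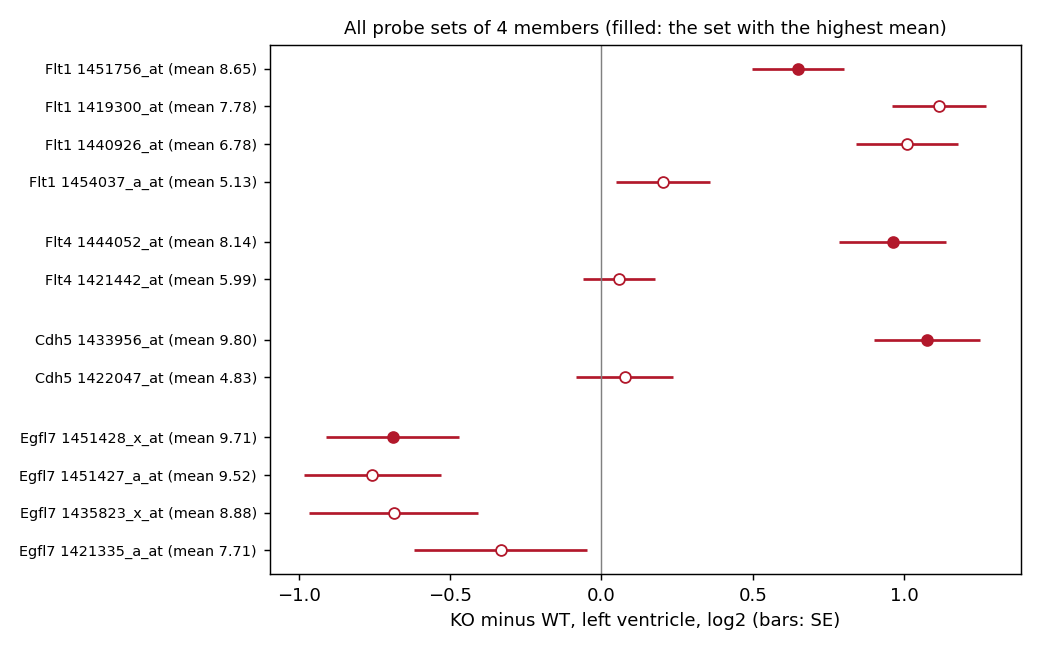
KO minus WT difference in the left ventricle (horizontal axis, log2, bars are SE) for every probe set of Flt1, Flt4, Cdh5 and Egfl7, each labelled with its mean over the 12 arrays. Filled points are the sets used; the dim sets of Flt1, Flt4 and Cdh5 lie near 0, and the 4 sets of Egfl7 all lie below it.

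In the right ventricle only Vwf was called among the 10 genes, where 8.19% of all genes were called, 4.61% of all genes upward and 3.58% downward. Vwf read 7.94, 7.78 and 7.77 in KO right ventricles, against 7.32, 7.41 and 6.67 in WT right ventricles, with every KO value above every WT value. The difference was 0.70 or 1.62-fold (SE 0.17, 95% interval 0.33 to 1.07, limma adjusted p = 0.0243). The call was lost without WT_RV replicate 3 (0.47, limma adjusted p = 0.0681), KO_RV replicate 1 (0.64, 0.0934), KO_RV replicate 2 (0.72, 0.0587) or KO_RV replicate 3 (0.73, 0.0595), with the control term (0.50, 0.133) and with only the 2 groups compared in the fit (0.70, 0.0565). With only the low-control arrays in the fit it stood at 0.47 and was called (limma adjusted p = 0.0268). That fit kept the same right ventricle arrays as the fit without WT_RV replicate 3, with 2 WT arrays. The difference was therefore the same, and the fits differed in the arrays that gave the spread.

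The receptors Kdr, Flt1, Tek and Tie1 overlapped between genotypes in the right ventricle. Kdr read 9.82, 9.88 and 9.87 in KO right ventricles and 9.68, 9.97 and 9.30 in WT right ventricles. Flt1 read 8.86, 8.94 and 8.66 in KO and 8.78, 8.89 and 8.20 in WT. The KO arrays lay close together for Kdr and less so for Flt1, and WT_RV replicate 3 was the lowest of the 6 in each case. Tek read 10.06, 9.92 and 9.78 in KO and 9.81, 9.82 and 9.30 in WT, and Tie1 read 7.49, 7.40 and 7.55 in KO and 7.38, 7.52 and 7.11 in WT. In both of these genes, too, WT_RV replicate 3 was the low array, and it stood near the mean of the WT left ventricles, at 0.01 above it for Tek and 0.16 above it for Tie1. For Kdr and Flt1 it stood at -0.01 and -0.06 from that mean, whereas for Vwf it stood 0.58 above it.

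The adhesion molecule Pecam1 read 7.04, 7.03 and 7.96 in KO right ventricles and 7.25, 7.25 and 7.35 in WT right ventricles. Its highest array was replicate 3 in every one of the 4 groups, KO and WT left ventricles included. Emcn read 10.52, 10.32 and 10.20 in KO and 10.41, 10.32 and 10.09 in WT, with groups that covered almost the same range. Egfl7 read 9.92, 9.55 and 9.46 in KO and 9.61, 9.90 and 10.25 in WT, and the highest of these 6 values was that of WT_RV replicate 3.

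The other 9 genes were not called in the right ventricle, although Flt4 and Cdh5 did not overlap between groups. Non-overlap upward held for 11.8% of all genes there. Flt4 read 8.37, 8.52 and 8.50 in KO right ventricles and 8.13, 8.32 and 7.59 in WT right ventricles (difference 0.45, 95% interval 0.08 to 0.82, limma adjusted p = 0.118). Cdh5 read 10.07, 10.09 and 10.17 in KO and 9.79, 9.91 and 9.28 in WT (difference 0.45, 95% interval 0.09 to 0.81, limma adjusted p = 0.115). Without WT_RV replicate 3 these differences were 0.24 and 0.26. Kdr (0.21), Flt1 (0.20), Tek (0.28), Tie1 (0.14), Pecam1 (0.06) and Emcn (0.07) had overlapping groups, as did Egfl7 (-0.28), and the intervals of these 7 genes included 0. Without WT_RV replicate 3, Kdr stood at 0.03, Flt1 at -0.02, Tek at 0.11 and Tie1 at 0.03.

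Whether the KO difference itself differed between ventricles was tested by the interaction, the right ventricle difference minus that of the left. No member was called by limma, whereas 6 of the 10 had an unadjusted p under 0.05, all 6 with a smaller KO difference in the right ventricle, where 13.9% of all genes had such a p. These were Vwf at -0.77 (SE 0.24, limma adjusted p = 0.314), Cdh5 at -0.63, Kdr at -0.50, Tie1 at -0.47, Flt1 at -0.45 and Tek at -0.44. Over all genes 0.0220% were called. Without WT_RV replicate 3 the interaction was called for Vwf (-0.998, limma adjusted p = 0.0234), Cdh5 (-0.82, 0.0383), Flt4 (-0.73, 0.0440), Kdr (-0.68, 0.0288), Flt1 (-0.67, 0.0251) and Tek (-0.61, 0.0287), with 7.20% of all genes called. Weighting the arrays, with all 12 kept, also called 6 members and 7.497% of all genes, with Tie1 called and Tek not. In the weighted fit the WT left ventricles all had high control levels as well. Without WT_RV replicate 3 the WT left ventricles were the only high-control arrays, so the interaction and the control level cannot be told apart in that fit.

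Right and left ventricles were compared within each genotype. In KO embryos no member was called by limma, and none had an unadjusted p under 0.05, as 10.3% of all genes did. Of all genes 1.14% were called, 0.550% upward and 0.594% downward. Vwf was 0.27 higher in the right ventricle of KO embryos (95% interval -0.10 to 0.64), with groups that did not overlap, and Kdr was lower there (difference -0.16, 95% interval -0.46 to 0.14), likewise without overlap. Non-overlap held for 9.24% of all genes upward and 10.4% downward. All 6 KO arrays had low control levels, so this contrast is within 1 control class. The level still varied within it, at 7.35 to 8.37 in right and 8.055 to 8.47 in left ventricles. With the control term Vwf stood at 0.13 and Flt1 at -0.24 (-0.09 without the term), and no member was called. Without the term, the intervals of the 8 genes other than Pecam1 and Egfl7 lay between -0.52 and 0.64.

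In WT embryos Vwf was the 1 of 10 genes called between chambers, with 0.984% of all genes called, 0.764% upward and 0.220% downward. Its groups did not overlap either, as held for 10.9% of all genes upward and 4.85% downward. It read 7.32, 7.41 and 6.67 in WT right ventricles, against 6.20, 5.81 and 6.27 in WT left ventricles. The difference was 1.04 or 2.06-fold (SE 0.17, limma adjusted p = 0.0101), and the lowest right ventricle, WT_RV replicate 3, was still above the highest left ventricle. The call was lost without WT_LV replicate 2 (0.90, limma adjusted p = 0.0645), WT_RV replicate 1 (0.95, 0.0643) or WT_RV replicate 2 (0.90, 0.0654), with the control term (0.84, 0.0785) and with only the 2 groups compared in the fit (1.04, 0.0915). Kdr (0.34), Flt1 (0.36), Flt4 (0.45), Tek (0.35), Tie1 (0.38) and Cdh5 (0.47) were not called, with limma adjusted p of 0.171 to 0.235. Without WT_RV replicate 3 those 6 and Vwf were called (0.50 to 1.27), and 9.53% of all genes. With that array set aside, the WT right ventricles all had low and the WT left ventricles all high control levels, so chamber and control level cannot be told apart there.

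**Figure D5:**
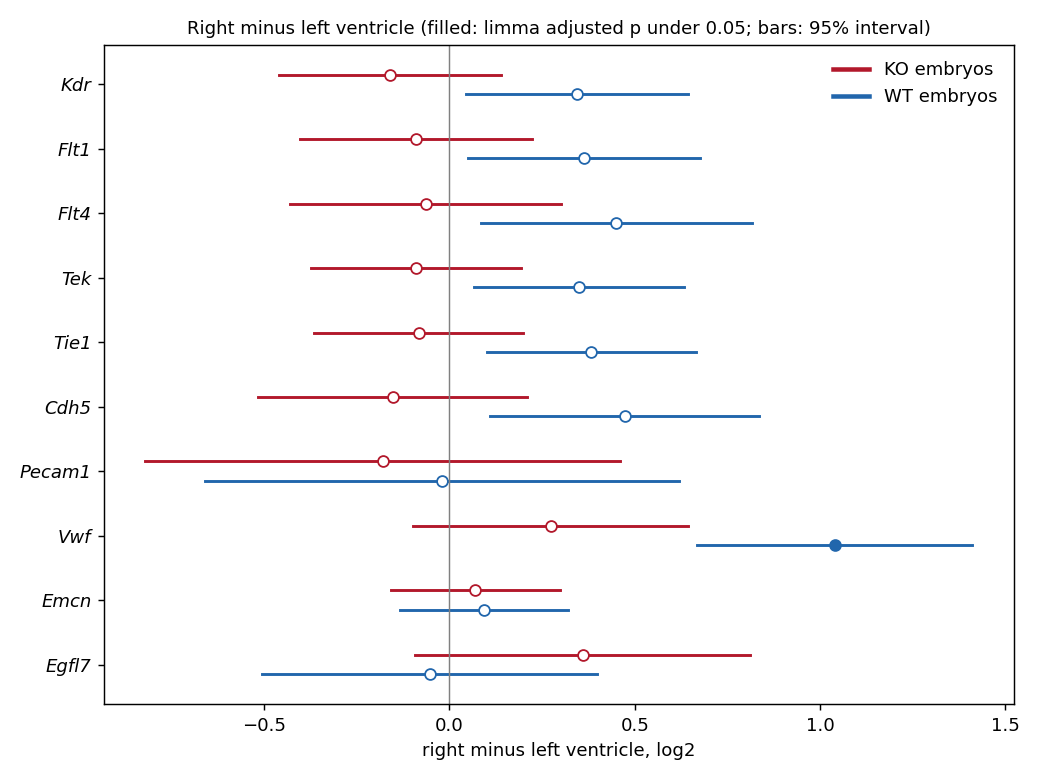
Right minus left ventricle difference (horizontal axis, log2) of each gene in KO and in WT embryos, with 95% intervals from limma. Filled points passed an adjusted p of 0.05, which held for Vwf in WT embryos; the KO intervals include 0 for all 10 genes.

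The values of the 10 genes were followed over the 12 arrays. Kdr, Flt1, Flt4, Tek, Tie1, Cdh5 and Vwf had pairwise Pearson correlations of 0.86 to 0.99 over the 12 arrays (21 pairs), and of 0.46 to 0.95 for deviations from the group means. Emcn followed these 7 genes less closely over the arrays (0.45 to 0.74), although its deviations reached as high (0.25 to 0.92). Pecam1 correlated with them at 0.02 to 0.46, and at -0.22 to 0.64 for the deviations. Egfl7 ran the opposite way, at -0.80 to -0.60, and at -0.76 to -0.34 for the deviations. These correlations describe arrays that share groups and the control level. The 7 genes are those that rose in KO left ventricles, where Egfl7 fell. High correlations among them over the 12 arrays, and the opposite sign of Egfl7, thus follow in part from that grouping. Among 11352 other genes at or above the median level, those most like Vwf over the 12 arrays were Asb1 (r = 0.99), Ltbp1 (0.98) and Tmem164 (0.98). Those most like Cdh5 were Msn (0.99), Gusb (0.98) and Atg9a (0.98), and those most like Egfl7 were Dtx3 (0.95), Zc3h8 (0.93) and Snhg5 (0.93).

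Nos3 was set against the mean of the 10 genes on the same array. In left ventricles it lay at -1.05 ± 0.15 in KO and -0.06 ± 0.19 in WT. The right ventricles had means of -0.97 ± 0.23 in KO and -0.08 ± 0.08 in WT (SD, n = 3 each). The KO values ran from -1.22 to -0.78 over both chambers and the WT values from -0.27 to 0.10, with no overlap. This difference shows unequal change of Nos3 and the 10 genes, not which of them changed.

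Ligands, partners and regulators of these receptors did not all move alike. Of 12 measured VEGF and angiopoietin ligands, co-receptors and the phosphatase Ptprb, 3 rose and 2 fell in KO left ventricles (median -0.05). Of all genes 18.6% were called higher and 12.3% lower there. The lymphatic ligand Vegfc rose by 0.75 (limma adjusted p = 0.000491) and Ptprb, which removes phosphate from Tek, by 0.70, while Angptl1 fell by 0.58 and Pgf, a ligand of Flt1, fell by 0.34. Vegfa, the main ligand of Kdr, was at -0.08 and Angpt1, the activating ligand of Tek, at 0.39, neither called (limma adjusted p = 0.780 for Vegfa and 0.0894 for Angpt1). Right ventricles had a median of -0.05 for this list, with Vegfc as the 1 called gene (0.46, limma adjusted p = 0.0245), against 8.19% of all genes.

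Among 14 junction partners 7 rose and 2 fell in KO left ventricles (median 0.26), where 18.6% of all genes were called higher and 12.3% lower. The catenin Ctnna1 rose by 0.70 and the tight junction scaffold Tjp1 by 0.67, both of which are also expressed in heart muscle cells. Cldn5, the endothelial claudin, and Jam3 were lower, at -0.54 and -0.43. In the right ventricle, where 8.19% of all genes were called, Cldn5 was the 1 gene of this list called, at -0.76 (limma adjusted p = 0.00592). The median there was 0.13. Of 17 transcription factors 11 rose in KO left ventricles (median 0.39), against 18.6% of all genes, led by Ets1 (0.69) and Sox7 (0.67). Fli1 (0.57) and Hey2 (0.34) were the 2 called in the right ventricle, where the median was 0.14. Hey2 also stands on the list of ventricular myocardium. Ets1 and Fli1 belong to the ETS family.

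Of 26 other endothelial genes, a list that includes Nos3, 11 rose and 5 fell in KO left ventricles (median 0.30). Cd93 rose by 1.18 and Mmrn2, a matrix ligand of Cd93, by 1.11, whereas Gpihbp1, which carries lipase to the capillary surface, averaged 8.47 in KO and 9.47 in WT, and the fatty acid binding protein gene Fabp4 was at -0.66, both called lower. In the right ventricle, where 8.19% of all genes were called, Calcrl rose by 0.48, and Nos3 (-0.66) and Fabp4 (-0.50) fell. The share called was 16 of 26 here and 8 of 10 in the receptor and junction set in the left ventricle, against 30.9% of all genes. These lists were chosen with results of these data known, and Sox17 stands in the last and among the transcription factors.

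Markers of other cells moved beside these genes. Of 12 leukocyte genes 10 rose in KO left ventricles (median 0.54) and 4 in KO right ventricles (median 0.32), where 30.9% of all genes were called in the left and 8.19% in the right ventricle. Their summed level was 12.11 to 12.28 in KO and 11.19 to 11.32 in WT left ventricles, and 11.42 to 11.72 in KO and 11.04 to 11.23 in WT right ventricles (log2). Of 8 endocardial genes, including Plvap of the list above, 7 rose and 1 fell in the left and 5 rose and 1 fell in the right ventricle, with summed levels of 12.22 to 12.41 in KO and 11.34 to 11.58 in WT left ventricles, and 12.16 to 12.41 in KO and 11.45 to 12.04 in WT right ventricles. Of 10 megakaryocyte and platelet genes Itgb3 alone rose in each ventricle (0.66 in the left), and their summed level was 10.03 to 10.16 in KO and 9.97 to 10.23 in WT left ventricles. Pf4, a platelet granule gene, read 8.38 to 8.49 in KO and 8.37 to 8.88 in WT left ventricles, and the platelet collagen receptor Gp6 read 4.35 to 4.42 in KO and 4.53 to 4.60 in WT left ventricles, below the median of all values. RMA gives no value of 0, so that absence is not defined. The part of leukocytes, endocardium and platelets in the differences of the 10 genes was not tested.

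The remaining marker lists were mixed in KO left ventricles, and several of their counts lie near the 30.9% called over all genes. Of 12 smooth muscle and pericyte genes 5 rose and 2 fell, of 5 lymphatic genes 2 rose and 1 fell, and of 7 erythroid genes 2 rose and 1 fell. In heart muscle, 4 of 10 genes of ventricular myocardium and 4 of 6 of atrial myocardium rose. Of 7 liver genes 2 fell, as did 2 of 4 lung genes and 2 of 4 nuclear noncoding RNAs. The nuclear RNAs averaged 8.64 to 10.31 in KO and 10.02 to 11.26 in WT left ventricles. Of the lymphatic list, Lyve1, a lymphatic and macrophage marker, rose by 0.78 and Prox1, which is also expressed in embryonic heart muscle, by 0.62. Pdpn was the gene that fell, with 9.19 to 9.48 in KO and 9.71 to 9.97 in WT left ventricles. The summed level of this list overlapped, at 10.14 to 10.33 in KO and 10.26 to 10.43 in WT left ventricles.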

How the data were processed

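Biotinylated cRNA of pooled ventricles was hybridised to Affymetrix arrays, as the labels' protocols state. The authors deposited log2 values for 45101 probe sets and 12 arrays, computed with RMA, per the submitters' processing notes (no version given). RMA forces a common distribution on the arrays, so a change shared by most genes would not show. No genome build is known for the probes, and their positions were not used. All 12 columns were used, and 0 were left out.

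Groups were taken from the titles. The platform annotation names 1 symbol for 34958 probe sets, several for 932 and none for 9211. The brightest set of each of 18194 genes was tested with limma (lmFit, eBayes) in one model of 4 group means, with Benjamini-Hochberg adjustment over all genes and a threshold of 0.05. The test was run on simulated data with noise drawn independently for each gene and array. That check does not cover shifts shared by many genes of an array. The labels describe each array as its own pool, and the p-values measure the spread between these pools. The number of arrays limits the precision. High-control arrays have a mean poly-A control level above 8.7.

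The members and lists were chosen with earlier results of these data known. All 10 members are described. Of the lists of ligands, junction partners, transcription factors and other endothelial genes, up to 2 called genes per direction are named. Vegfa, Angpt1, Lyve1, Prox1, Pdpn and the platelet genes were named after their values were seen. Vwf, Cdh5 and Egfl7 are given the 3 genes of highest Pearson r, with predicted genes and dim genes passed over. Promoters come from RefSeq, GRCm38.p6.

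Alternatives were a filter on dim genes, median centring, renewed quantile normalization, a mean-variance trend with robust estimation, weighting of the arrays, a block for the replicate number, the mean of a gene's probe sets, all probe sets tested, the compared groups alone, a control term and each array left out. The low-control arrays alone were chosen after seeing the data. Deviations from group means correlated between same-numbered arrays at 0.11, 0.26 and 0.31 for KO and WT right ventricles. For right and left KO ventricles they did so at 0.21, 0.29 and 0.26. In both of these comparisons each KO right ventricle correlated more highly with the same-numbered array of the other group than with its other arrays. This did not hold for every array in the other comparisons. Whether same-numbered arrays shared embryos or handling was not tested. The values were 0.01, 0.14 and 0.42 for KO and WT left ventricles, and 0.23, -0.01 and 0.15 for right and left WT ventricles. The labels name no pairing of pools across groups, so the reported tests were unpaired, and the replicate block was an alternative only. Software comprised R 4.3.3 with limma 3.58.1, and Python 3.11.15 with pandas 2.3.3 and matplotlib 3.10.9.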

Additional observations from a re-analysis of the deposited data

How the results depend on the processing

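Of the 10 genes, 8 were called between KO and WT left ventricles, 1 between right ventricles, 0 in the interaction, 0 between KO chambers and 1 between WT chambers. With the replicate block these counts were 8, 1, 0, 0 and 1, and no call of a member changed in any of the 5 comparisons. The left ventricle count was 8 under 7 further settings, 7 with the mean of a gene's probe sets and 6 with the control term, and 7 to 8 with each array left out. Between right ventricles it was 0 with the compared groups alone and with the control term, and 0 to 1 with each array left out. In the interaction it was 6 with array weights and 0 to 6 with each array left out, the 6 being without WT_RV replicate 3. Between WT chambers it was 7 with array weights, 0 with the compared groups alone, 0 with the control term and 0 to 7 with each array left out, the 7 being without WT_RV replicate 3. Between KO chambers it was 0 under every setting run. Over all genes, the share called ranged over the settings from 14.1% (control term) to 46.3% (dim genes left out) between left ventricles, against 30.9% as reported, and from 4.19% to 15.7% (array weights) between right ventricles, against 8.19%. It ranged from 0.011% to 7.50% (array weights) in the interaction, against 0.0220%, from 0.572% to 3.76% between KO chambers, against 1.14%, and from 0.225% to 12.2% between WT chambers, against 0.984%. The compared groups alone leave fewer arrays to estimate the spread. The cause of the changes in these counts and shares was not tested. Under no setting did a called gene change sign. The 3 arrays per group limit every comparison.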
